A study of Drosophila melanogaster with 2 samples.

Results

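The transcripts described here belong to 10 autophagy genes of Drosophila melanogaster: the cargo adaptor gene ref(2)P and the core genes Atg1, Atg2, Atg5, Atg6, Atg7, Atg8a, Atg9, Atg13 and Atg18a. They were chosen by name, as genes with a probe set annotated to them alone, and all 10 had one. Together they held 11 probe sets (Atg13 had 2) of 13966, and were 10 of 10844 genes represented this way. The w1118 inbred laboratory stock (w118 in some labels) supplied adult male heads, whose poly(A) RNA was measured on 2 Affymetrix DrosGenome1 arrays, which read each transcript with sets of short oligonucleotide probes. The unexposed array came from heads at adult day 3, from flies kept in food bottles. The paraquat array came from males fed sucrose with 15 mM paraquat for 30 h from adult day 2, whose heads were also taken at day 3. Flies of both groups were collected within 24 h of eclosion and kept at about 200 per bottle in constant darkness at 25 °C and 70% humidity. Paraquat, a redox-cycling herbicide, generates superoxide in cells, and the study asked how oxidative stress alters expression in the head. Each group held 1 array, so no difference has a replicate check, and food bottle and sucrose cannot be told apart from paraquat.

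Autophagy carries cytoplasmic cargo to the lysosome inside a double-membraned vesicle, the autophagosome. The Atg1 kinase complex starts the process, a lipid kinase complex marks the site with a phosphoinositide, and Atg9, Atg2 and Atg18a bring lipid to the growing membrane. An E1-like enzyme and a chain of conjugating proteins then attach Atg8a to the membrane, where adaptors bind it. Ref(2)P, the fly counterpart of mammalian p62, binds ubiquitinated proteins and Atg8a, and is itself degraded by autophagy, so ref(2)P protein accumulates in the fly brain when autophagy is blocked. Transcript levels do not measure autophagic flux.

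Intensities below were scaled to a common array median. A floor of 477.3 was used (40th percentile of probe set means over the arrays), and a probe set at or above it on both arrays is called measured. That held for 7425 of 13966 probe sets (53.2%) and, through at least 1 probe set, for 6178 of 10844 genes (57.0%). Errors of log2 ratios (paraquat over unexposed) are 1 SE of array error, estimated from control probe sets, and do not cover the spread between flies, bottles or RNA preparations. All 10 autophagy genes had a measured probe set. As markers of head tissue, the neuronal gene elav (5391 unexposed, 4429 paraquat), the glial gene repo (6242 and 4398) and the photoreceptor gene Arr2 (135880 and 126944) were measured. So were 6 of 8 neuronal, 5 of 6 glial and all 5 photoreceptor markers with an unshared probe set. Gad1 was under the floor on both arrays, and brp and moody on the unexposed array.

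The adaptor gene ref(2)P stood highest among the 10 and was the only one at least 2-fold higher with paraquat. Its probe set read 9594 in unexposed heads and 45615 after paraquat. This is a 4.75-fold higher level with paraquat (log2 2.25 ± 0.13, 95% interval of array error 1.998 to 2.50), which ranked 45 of the 6178 measured genes from the highest ratio down. Another probe set, annotated jointly to ref(2)P and to IA-2, a receptor tyrosine phosphatase-like gene of secretory vesicles, read 57125 unexposed and 57088 paraquat (log2 0.00 at this rounding, array error 0.12). The probe set of IA-2 alone read 2492 unexposed and 1756 paraquat (log2 -0.51 ± 0.38). The 4.75-fold difference of ref(2)P thus comes from 1 probe set and was not seen in the shared one. Which of the 2 transcripts the shared set reads was not tested.

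Genes with a similar ratio were taken as the 5 measured probe sets with 1 gene symbol whose log2 ratio lay closest to that of ref(2)P, over 1 pair of arrays. The secreted insulin-binding protein gene ImpL2 went from 4685 to 22323 (log2 2.25 ± 0.16). The cytochrome P450 gene Cyp4p1 went from 3156 to 14828 (log2 2.23 ± 0.20) and Dgp-1 from 3539 to 17040 (log2 2.27 ± 0.19). CG32091 (log2 2.24 ± 0.95) and CG4210 (log2 2.21 ± 0.32) completed the 5, the first of them from an unexposed intensity of 558, close to the floor. All 5 ratios lay within 0.04 of that of ref(2)P on the log2 scale.

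The protein-coding genes next to ref(2)P on its chromosome, chosen by position after the value of ref(2)P was known, are given beside it. Of the 3 genes on each side, CG31697 had no probe set of its own in the annotation used here. On the same side, CG13081 was under the floor on both arrays, and CG13082 read 3152 unexposed and was under the floor with paraquat, at least 6.60-fold lower against the floor. On the other side, the adjacent CG10337 read 1576 and 1564 (log2 -0.01 ± 0.48). Tep4, a thioester-containing immune protein gene, went from 19150 to 9862 (log2 -0.96 ± 0.13), and CG13078 from 5064 to 6135 (log2 0.28 ± 0.18).

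**Figure D1:**
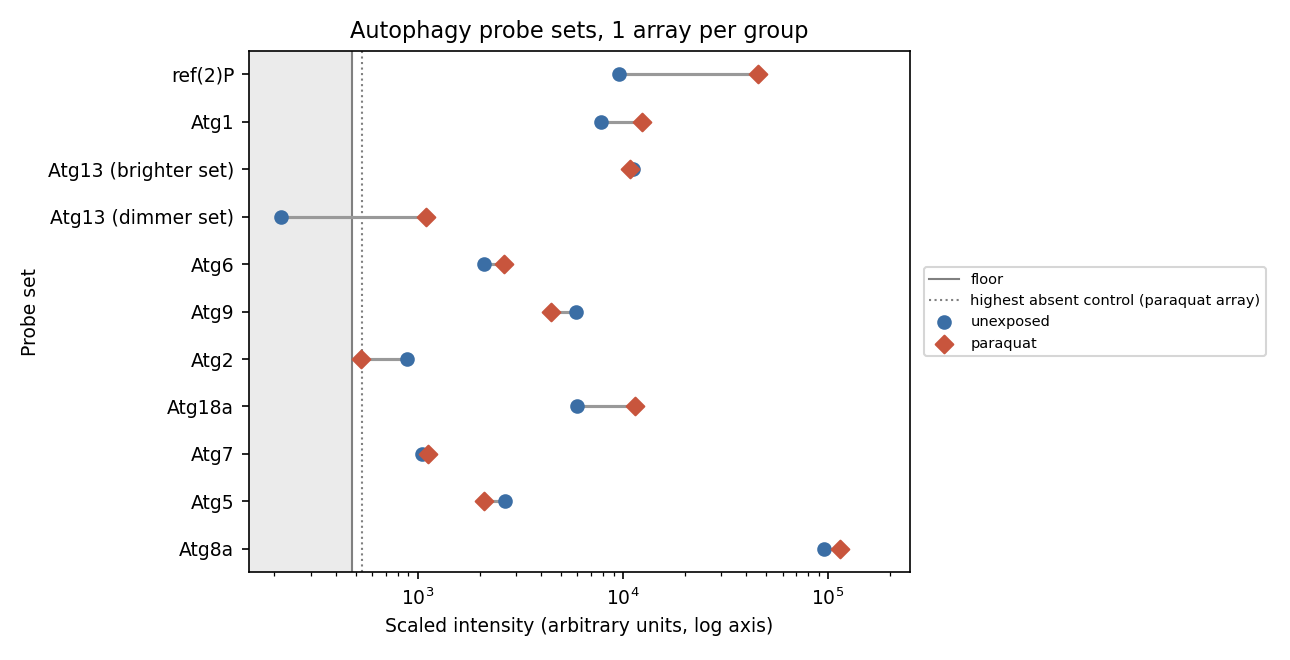
Scaled intensity (log axis) of the 11 probe sets of the 10 autophagy genes on the unexposed array (circles) and the paraquat array (diamonds), with the floor of 477.3 and the highest absent control of the paraquat array (533.2). The ref(2)P pair is widely spaced (9594 and 45615), the dimmer Atg13 set starts below the floor, and the paraquat value of Atg2 lies at the absent control.

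Of the genes that start autophagy, Atg1 was higher with paraquat, and Atg13 differed little in the brighter of its 2 probe sets. Atg1, the kinase at the head of the pathway, read 7821 unexposed and 12418 paraquat. It was 1.59-fold higher (log2 0.67 ± 0.14, interval 0.39 to 0.94). The brighter probe set of Atg13, the regulatory partner of Atg1, read 11219 and 10819 (log2 -0.05 ± 0.13), nearly equal on both arrays. The dimmer Atg13 set was under the floor unexposed (215) and read 1101 with paraquat, at least 2.31-fold higher against the floor. An additive array error of 358.3 applies to each of these dim readings, and the bound is within array error. Atg6, the Beclin homologue that belongs to the lipid kinase complex, read 2090 and 2636 (log2 0.33 ± 0.34), a difference of about its array error.

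The genes that act in membrane supply went in opposite directions. Atg18a, a WIPI-family protein that binds the phosphoinositide made by the lipid kinase, read 5997 unexposed and 11504 paraquat. It was 1.92-fold higher (log2 0.94 ± 0.15, interval 0.64 to 1.24), the largest ratio after ref(2)P among the 10 genes. Atg9, the transmembrane protein of the vesicles that seed the autophagosome, read 5891 and 4447, and was 1.32-fold lower (log2 -0.41 ± 0.19, interval -0.77 to -0.04). Atg2, a lipid-transfer protein that works with Atg18-family proteins, read 887 unexposed and 528 with paraquat. The paraquat reading was not above the highest absent control of that array (533.2), the brightest of the control sets whose target RNA was not added. No ratio is therefore read from Atg2, although it is counted as measured by the floor (log2 -0.75 ± 1.15).

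Of the conjugation genes, Atg8a differed little, and Atg7 and Atg5 had wide intervals. Atg8a, the ubiquitin-like protein that is joined to the autophagosome membrane, read 95489 unexposed and 113695 paraquat. It was 1.19-fold higher (log2 0.25 ± 0.12), with an interval of array error of 0.02 to 0.48 that barely leaves out 0. Atg7, the E1-like enzyme that activates Atg8a and Atg12, read 1052 and 1118 (log2 0.09 ± 0.68). At this brightness an interval of -1.25 to 1.43 leaves a 2-fold difference in either direction undetectable. Atg5, which forms the conjugate with Atg12 that directs Atg8a to the membrane, read 2651 and 2098 (log2 -0.34 ± 0.33, interval -0.99 to 0.32).

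**Figure D2:**
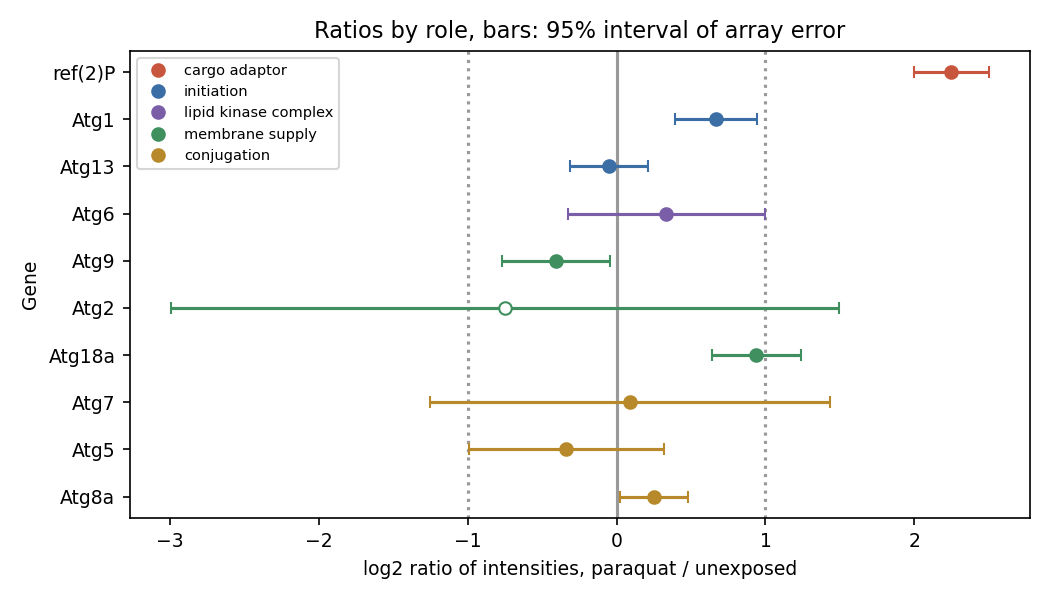
Log2 ratio of intensities (paraquat over unexposed) for each of the 10 genes, coloured by role, with bars for the 95% interval of array error and dotted lines at 2-fold. Ref(2)P (2.25) lies beyond the 2-fold line with its whole bar, Atg18a (0.94) and Atg1 (0.67) lie above 0, and the open point is Atg2, which is not above the highest absent control.

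Read together, 1 of the 10 genes was at least 2-fold higher, where 8.03% of all measured genes were, and none was at least 2-fold lower, where 8.08% were. As a count, 1 of 10 is close to the share over all genes. Beyond the 95% interval of array error, 4 of the 10 were higher (ref(2)P, Atg18a, Atg1 and Atg8a), against 14.9% of all measured genes. In the other direction 1 of the 10 was lower (Atg9), against 14.9% of all genes. The median log2 ratio of the 10 was 0.17, beside 0.03 for all measured genes, and 6 of the 10 had ratios above 0, as did 52.2% of all genes. With the floor at the highest absent control, which leaves out Atg2, the median was 0.25, and at the 80th percentile floor, which 6 genes reached, it was 0.46.

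In descending order of log2 ratio, with Atg2 left out, the genes ran ref(2)P, Atg18a, Atg1, Atg6, Atg8a, Atg7, Atg13, Atg5 and Atg9. The step from ref(2)P to Atg18a was 1.31 ± 0.20 on the log2 scale (interval 0.92 to 1.70), beyond array error. The step from Atg18a to Atg1 was 0.27 ± 0.21 (interval -0.13 to 0.68), within array error. The 6 further steps down the order were also within it, so neighbours below ref(2)P cannot be ranked. Among all measured genes, Atg18a ranked 574 and Atg1 1010 from the top, while Atg9 ranked 1473 from the bottom.

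**Figure D3:**
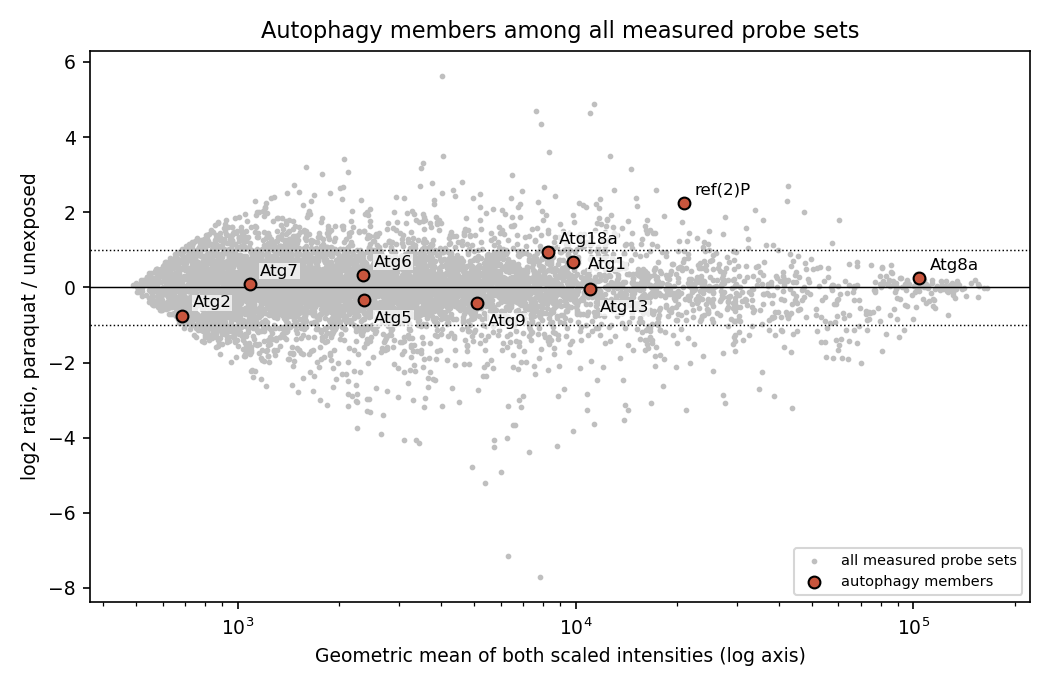
Log2 ratio (paraquat over unexposed) against the geometric mean of both scaled intensities (log axis) for the 7425 measured probe sets (grey) and those of the 10 autophagy genes (red), with dotted lines at 2-fold. Ref(2)P (2.25) stands above most probe sets of similar brightness, while the other genes lie inside the 2-fold lines.

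The ratios of most of the 10 genes depended little on the scaling or on a pseudocount. A higher floor can only drop a probe set, so the ratio of a gene with a single set stays unchanged or is lost. Taking the brightest probe set likewise changes only genes with several sets. Over the 9 settings, ref(2)P ran from 2.19 to 2.37, Atg18a from 0.89 to 0.97 and Atg1 from 0.64 to 0.70 on the log2 scale. Atg13 changed sign, from -0.05 to 0.57, where a pseudocount in place of the floor let its dimmer probe set into the mean. The highest value of Atg8a was 0.41, after loess. Atg9 stayed between -0.45 and -0.37 over all 9 settings. With floors at the 60th and the 80th percentile, 8 and 6 of the 10 genes were still measured. Of these, ref(2)P was the only one past 2-fold upward, beside 5.89% and 5.43% of all measured genes. None of them passed it downward, beside 6.43% and 6.62%.

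**Figure D4:**
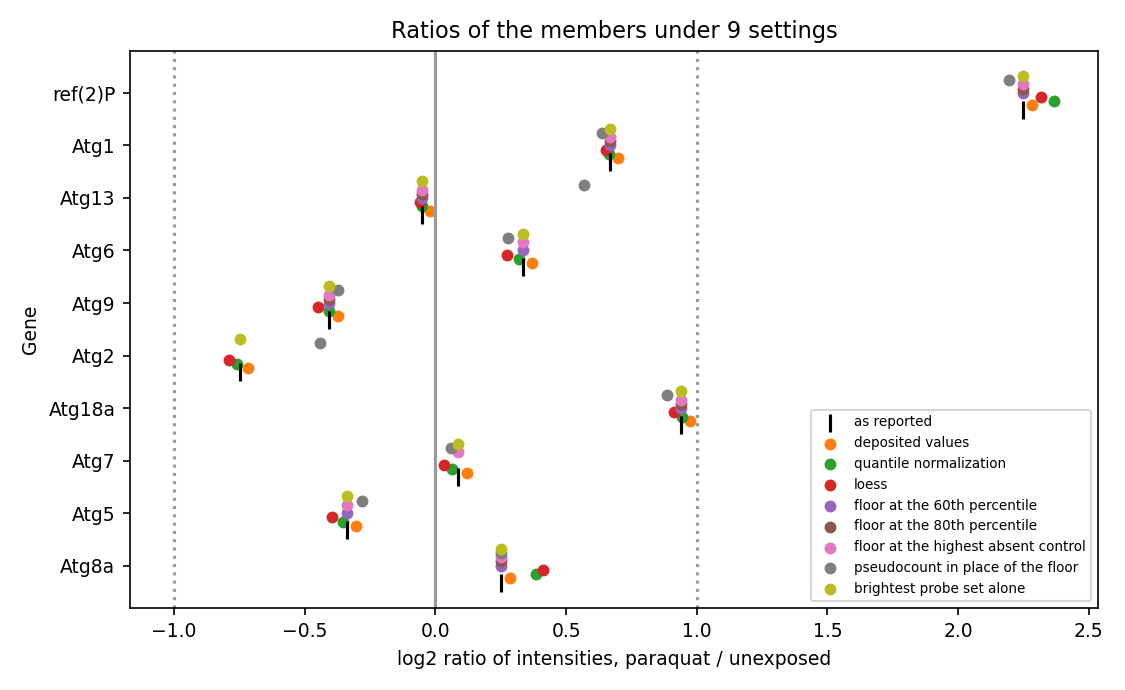
Log2 ratio (paraquat over unexposed) of each of the 10 genes as reported (black bars) and under 8 other settings (dots); a missing dot means that the gene was not measured under that setting. The dots of ref(2)P stay between 2.19 and 2.37, and Atg13 has a single dot far from its others, at 0.57 with the pseudocount.

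The rest of the pathway was read from 5 lists, together 71 genes with an unshared probe set, of which 58 were measured. Past 2-fold were 5 higher genes (8.03% over all measured genes) and 1 lower gene (8.08%). With the floor at the 60th percentile these counts were 2 and 0 of 43 measured (5.89% and 6.43% over all genes), and at the 80th percentile 0 and 0 of 25 (5.43% and 6.62%). The median log2 ratio was 0.31 and 42 of the 58 lay above 0, beside 0.03 and 52.2% over all genes. At the 60th percentile floor the median was 0.31 (0.01 over all genes), and at the 80th it was 0.16 (-0.02 over all genes).

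Of 14 other core autophagy genes measured, 12 had ratios above 0 (52.2% over all genes), and the median was 0.44. It was 0.38 over 9 genes at the 60th percentile floor and 0.17 over 3 genes at the 80th. Beyond array error, 4 of the 14 were higher (14.9% over all genes) and none lower, and 1 passed 2-fold upward (8.03% over all genes), which none did at either higher floor. Atg18b, a relative of Atg18a, went from 1205 to 2652 (log2 1.14 ± 0.49). Epg5, a tether for fusion with late endosomes and lysosomes in mammals, went from 831 to 1555 (log2 0.90 ± 0.71). The brighter set of bchs, a large BEACH-domain protein of aggregate clearance, went from 1062 to 1927 (log2 0.86 ± 0.57), and its dimmer set from under the floor (72.9) to 630, at least 1.32-fold higher. The ratios of Epg5 and of the brighter bchs set, and the bound of the dimmer bchs set, were within array error. Atg101, a subunit of the Atg1 complex, had 1 set under the floor on both arrays and 1 that went from 3384 to 5302 (log2 0.65 ± 0.22). Atg8b, Atg10 and Atg17 were under the floor on both arrays.

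Genes for fusion with the lysosome had a median of 0.08 over 8 measured (-0.08 over the 2 genes above the 80th percentile floor). None passed 2-fold in either direction (8.03% higher and 8.08% lower over all genes). Of the 13 listed, Syx17, Rab7 and Vps11 had no unshared probe set in the annotation used. The listed genes dor and Vps39 were under the floor on both arrays. Rab2, a GTPase required for fusion with the lysosome in flies, went from 3231 to 5462 (log2 0.76 ± 0.22). It was the only one of the 8 beyond array error (14.9% higher and 14.9% lower over all genes). The tethering subunit car (log2 -0.61 ± 1.07), Plekhm1 (-0.41 ± 0.36) and Vps16A (0.33 ± 0.84) were all within their intervals.

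Lysosomal genes had a median of 0.15 over 10 measured, and 1 passed 2-fold, downward (8.08% over all genes), which none did at either higher floor. The cathepsin genes CtsB and CtsL1, whose products digest protein in the lysosome, were among the higher ones. CtsB went from 34120 to 60828 (log2 0.83 ± 0.12) and CtsL1 from 35489 to 52929 (log2 0.58 ± 0.12). The cathepsin genes cathD (38266 to 33667, log2 -0.18 ± 0.12) and CtsF (38204 to 42663, log2 0.16 ± 0.12) were within array error. After quantile normalization CtsB passed 2-fold (log2 1.10). The lysosomal galactosidase gene Gal, the 1 past 2-fold, went from 1539 to 564 (log2 -1.45 ± 0.98), and ema from 1427 to 2059 (log2 0.53 ± 0.46). Both ratios were within array error. Lerp, a sorting receptor for lysosomal enzymes, had no measured probe set among its 4. The set brightest when unexposed read 476.5 and 261.3, under the floor on both arrays. The largest bound among the 4 was at least 2.69-fold higher (381 to 1283). Ppt1, a lysosomal thioesterase gene, read 35.2 and 559 (at least 1.17-fold higher). The bounds of Lerp and Ppt1 were within array error. The lysosomal transcription factor gene Mitf was under the floor on both arrays.

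Among genes that link nutrients to autophagy, 12 of 16 measured had ratios above 0 (52.2% over all genes), and 4 passed 2-fold, all upward (8.03% over all genes). At the 60th percentile floor 2 of 12 passed 2-fold (5.89% over all genes), and at the 80th 0 of 6 (5.43%). The median was 0.56 over the 16, and 8 were higher beyond array error (14.9% over all genes). The insulin receptor substrate gene chico, which acts against autophagy through Akt and Tor, went from 3035 to 7825 (log2 1.37 ± 0.22). Sesn, an inhibitor of Tor signalling, went from 2831 to 6249 (log2 1.14 ± 0.23). For SNF4Agamma, the regulatory subunit of AMPK, the probe sets gave log2 0.79 and 1.41, with a mean of 1.10. Lst8, a subunit of Tor complexes, went from 519 to 1852 (log2 1.84 ± 1.04) from an unexposed value near the floor, within array error. The insulin receptor gene InR was under the floor unexposed (364) and read 1715 with paraquat, at least 3.59-fold higher, and Iml1 read 896 unexposed and was below 0 with paraquat. The members of this list that were higher include both activators and inhibitors of autophagy. The head of the pathway, Tor, was not analysed here, having no unshared probe set in the annotation used.

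A further list held genes tied to the function of ref(2)P: those for ubiquitin, mitophagy, the Keap1 and CncC pair and PB1-domain partners. Its median was 0.25 over 10 measured genes, and none passed 2-fold in either direction (8.03% higher and 8.08% lower over all genes). For mitophagy, park had no unshared probe set in the annotation used, and Pink1 went from 9271 to 8575 (log2 -0.11 ± 0.14). The polyubiquitin gene Ubi-p63E went from 69569 to 105489 (log2 0.60 ± 0.12). The CncC gene cnc, the fly Nrf2, had 3 measured probe sets with log2 ratios from 0.24 to 1.85 (mean 0.82 ± 0.35). A further cnc set was under the floor with paraquat and read 815 unexposed. The cnc value was 0.31 at the 60th percentile floor, 0.24 with the brightest set alone and 0.18 with a pseudocount. The small Maf partner of CncC, maf-S, went from 13322 to 17334 (log2 0.38 ± 0.13), and aPKC from 826 to 1236 (log2 0.58 ± 0.76).

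**Figure D5:**
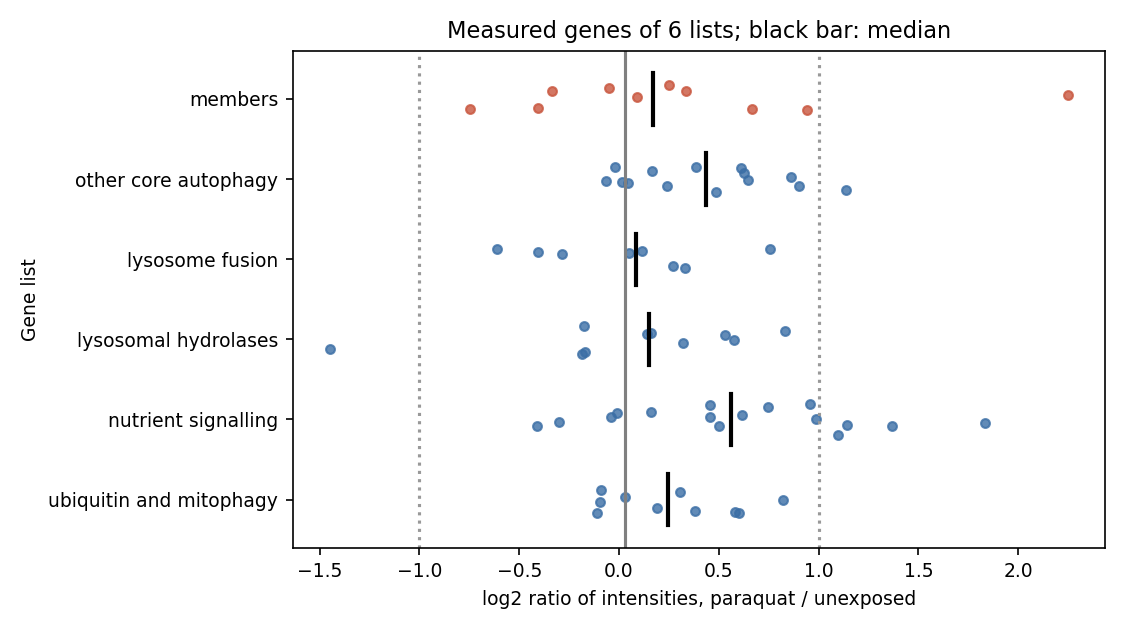
Log2 ratio (paraquat over unexposed) of each measured gene in 6 lists, the 10 autophagy genes in red and 5 further lists in blue, with a black bar at each median, a grey line at the median of all measured genes (0.03) and dotted lines at 2-fold; points are spread vertically for legibility. Ref(2)P (2.25) is the highest point, followed by Lst8 (1.84), and the medians lie between 0.08 and 0.56.

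Marker genes of other tissues moved on the same pair of arrays. In these bulk samples, fewer cells of a type and less RNA per cell cannot be told apart. The head fat body list had 8 measured genes, 6 of them past 2-fold downward (8.08% over all genes), with a median of -2.46. The summed intensity of the list, negative readings taken as 0, was 608642 unexposed and 96915 paraquat. Of 20 male reproductive tract markers, 3 were measured (57.0% over all genes), and the sums of the list were 51999 and 7899. Another 14 cleared the floor when unexposed only, and the share of all genes in this state was not counted. Unexposed readings of these 14 ran from 479 (Acp26Aa) to 9999 (Mst57Da). Acp26Aa, Acp53Ea (517), ocn (532) and Acp36DE (557) cleared the floor by less than the additive array error of 358.3. No loss with paraquat is therefore read from these dim sets. The other 3, Acp26Ab, Acp62F and Acp76A, were above the floor on neither array. Medians were also below 0 for glia (-0.91, 5 measured, sums of 127924 and 95912), gut (-0.86, 4 measured, sums of 23626 and 16242) and haemocytes (-0.80, 6 measured, sums of 25311 and 13260). The same held for muscle (-0.67, 5 measured, sums of 159464 and 58704), neurons (-0.27, 6 measured, sums of 55521 and 43861) and photoreceptors (-0.10, and 0.01 after loess, 5 measured, sums of 407150 and 376984). Single markers went the other way beyond array error, the amylase gene Amy-d of the gut list from 2847 to 7641 (log2 1.42 ± 0.23) and srp of the haemocyte list from 1715 to 2925 (log2 0.77 ± 0.37). The part of these tissues in the ratios of ref(2)P, Atg18a, Atg1 and Atg9 was not tested.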

How the data were processed

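Heads of unexposed and paraquat-fed males were measured on 2 arrays, 1 per group, grouped by sample title. The values are intensities on a linear scale as deposited, with negative values; that the authors scaled each array to a mean of 2500 (2% of probe sets trimmed at each end) was read from the values. No source used here names the summarisation software. Of 14010 probe sets, 44 were controls. Arrays were scaled to a common median (factors 1.01 unexposed, 0.99 paraquat), floored at 477.3 and log2-transformed (Python 3.11.15, pandas 2.3.3). Array error combines the SD of absent controls (358.3, 46 values) and the SD of log2 ratios of 9 spiked-in probe sets (0.12). The number of arrays limits precision. Scripts were tested on simulated data.

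Gene symbols came from a 2016 platform annotation: 12443 had 1 symbol, 327 several and 1196 none. Of the 12443, 12394 matched RefSeq Release 6, used for names and gene order. Measured probe sets of a gene were averaged. Named are all 10 genes, up to 4 genes with the largest ratio and 2 with the largest bound per pathway list, and the 5 closest in ratio to ref(2)P. Other named genes, the tissue markers shown as tissue checks and the neighbours of ref(2)P included, were chosen outside this rule. Members and lists were chosen with earlier results of these data known. With 1 array per group no test was made. Scaling, floor, pseudocount and probe set choice were varied in 8 alternatives.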

Additional observations from a re-analysis of the deposited data

Results flagged for a closer look

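The probe set annotated jointly to ref(2)P and IA-2 lies outside the comparisons by gene, which use probe sets with 1 symbol, and was bright on both arrays. It read 57125 without and 57088 with paraquat, above the highest absent controls of 446.5 and 533.2. Its log2 ratio had a 95% interval of array error from -0.23 to 0.23, which does not overlap that of the probe set of ref(2)P alone (1.998 to 2.50).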

How the results depend on the processing

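Among the ratios of the 10 genes and the counts at 2-fold, 98 of 105 values under an alternative moved by no more than 1 SE of array error or, for counts, by no more than 1.5 times. Many could not move, here and among the further single genes. A changed floor or the brightest set returns the same ratio for a gene that keeps its only probe set. Genes without a value under a setting were not counted, so these tallies do not measure robustness to the floor. Atg8a was 0.39 after quantile normalization and 0.41 after loess. Atg13 was 0.57 where a pseudocount replaced the floor, because its dimmer set then entered the mean. At floors of the 60th and of the 80th percentile, the other pathway genes at least 2-fold higher numbered 2 and 0 (5 as reported) and those at least 2-fold lower 0 and 0 (1 as reported), with fewer genes measured. Atg2 had no value with the floor at the 60th or 80th percentile or at the highest absent control, Atg7 none at the 60th or 80th, and Atg5 and Atg6 none at the 80th. Of the further values (single genes outside the 10, list counts and list medians), 631 stayed within the same limits and 50 moved: 16 of single genes, 19 of list counts, 14 of list medians, and the median of the 10 genes (0.17 as reported), which was 0.46 at the 80th percentile floor. The median ratio of all genes stayed between -0.02 and 0.06. No replicate could be left out, since each group held 1 array. No paired analysis was possible because each group held 1 array and the result comes from no test. Signal over background limits Atg2, Atg7 and the dimmer Atg13 set.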

Other observations

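Outside the rule for named genes, and chosen after their values were seen, are some kinase genes of the pathway lists. S6k, Akt and Pi3K59F lay below 2-fold but were higher beyond array error, as were 14.9% of all measured genes at any fold. S6k, a target of Tor, went from 4423 to 8759 (log2 0.99 ± 0.17). Akt, which acts between the insulin receptor and Tor, went from 1642 to 3190 (log2 0.96 ± 0.37). Pi3K59F, the lipid kinase (Vps34) that works with Atg6, went from 4528 to 6989 (log2 0.63 ± 0.18). Kinase genes of the same lists within array error included AMPKalpha (log2 -0.01 ± 0.13), Pink1 (-0.11 ± 0.14), Vps15 (0.24 ± 0.55) and aPKC (0.58 ± 0.76).

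The probe set shared by Atg10 and CG12822 read 4373 and 5002 (log2 0.19 ± 0.20), while the one of Atg10 alone was under the floor on both arrays. The 3 control probe sets for 18S ribosomal RNA had log2 ratios from -1.01 to -0.92, and those of GAPDH 0.13 at the 3′ end, 0.46 in the middle and 0.27 at the 5′ end. For eIF-4a the 3′ and 5′ sets had log2 ratios of 0.00 and 0.25, and for actin -0.36 and 0.01.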
